A study of Mus musculus with 2 samples.

Results

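The miRNA families Mir297, Mir466, Mir467 and Mir669 were described in forebrain of mouse embryos. Members were all rows of the count tables whose gene symbol in the mouse build mm10 begins with one of these 4 names followed by a letter, a hyphen or nothing, which gave 69 of 1973 miRNA gene rows. Short RNA of under 30 bases was sequenced as 2 libraries of a single group. Both came from embryos of mouse strain B6NCrl at embryonic day 11.5, with no genetic change or treatment named in the labels, and neither a control group nor another condition was analysed here. Replicate 1 is a pool from 109 embryos and replicate 2 a pool from 88, with both sexes in each, and the labels give both pools the same donor entry. In pooled tissue, fewer cells of a type and less RNA per cell cannot be told apart.

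A miRNA is a short RNA cut from the hairpin of a longer transcript. It guides silencing proteins to messenger RNAs that pair with its seed, which here is taken as bases 2 to 8. The families described here belong to mouse and other rodents and are rich in alternating UG and CA steps. Most of their copies lie in an intron of Sfmbt2, a Polycomb group gene that is imprinted and transcribed from the paternal allele in extraembryonic tissue. This intronic array is known from placenta and embryonic stem cells.

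Mature sequences are shown for members outside the Sfmbt2 intron. Of the 69 members, 9 had an entry among the RefSeq miRNA sequences (build GRCm38.p6). Mature sequences placed on a chromosome that holds no member row were left out, after which 8 of these had a mature sequence. These 8 are printed below with the seed in capitals, to show the alternating steps and the seeds of copies that had 0 counts in both libraries. No mature sequence of a member with counts was used here.
miR-466q (chr3:28419988-28420007, plus strand): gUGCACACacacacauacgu
miR-466k (chr3:85467396-85467418, plus strand): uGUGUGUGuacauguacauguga
miR-669n (chr3:115979905-115979924, plus strand): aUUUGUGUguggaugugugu
miR-467g (chr5:34732872-34732892, minus strand): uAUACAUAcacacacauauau
miR-467h (chr9:115381898-115381919, plus strand): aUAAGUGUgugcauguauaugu
miR-466j (chr10:60960802-60960824, plus strand): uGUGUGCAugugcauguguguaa
miR-467f (chr11:69635419-69635439, minus strand): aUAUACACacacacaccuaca
miR-466i-3p (chr13:17747552-17747573, plus strand): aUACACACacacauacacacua

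These mature sequences had 8 different seeds, so members that share a family name do not share a seed in this set. From 50% of neighbouring base steps in miR-467g to 78.9% in miR-466q were UG, GU, CA or AC. The same held for the hairpins. A run TGTGTG or CACACA, read on the strand of the gene and counted once where both overlapped, stood in all 69 member hairpins of GENCODE M21. It stood in 16.9% of the 1825 other gene rows with a hairpin. The median share of TG, GT, CA and AC steps was 51.2% in member hairpins and 26.6% in the others.

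The array occupies 1 intron. Of the 69 members, 59 lie inside intron 10 of Sfmbt2 (ENSMUSG00000061186, chromosome 2, 10370510 to 10595253), on the strand of the gene. This intron of 62472 bases runs from 10461473 to 10523944 in an Sfmbt2 transcript of 23 exons. From the first member hairpin at 10466663 to the end of the last at 10518279 the array covers 51617 bases, and no exon of any Sfmbt2 transcript lies within it. Member hairpins overlap no other gene row. A further 12 symbols of these families, such as Mir669a-4 and Mir466e, lie in the same intron and had no row, so they were not analysed here.

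The other 10 members stand on 7 chromosomes. Mir466q lies in an intron of Tnik on the strand of that gene. Mir466i in Cdk13, Mir466k in Gm37240, Mir467f in Fxr2, Mir467g in Grk4 and Mir669n in Slc30a7 lie in introns on the opposite strand. Mir466j, Mir467h, Mir466f-4 (chromosome 13, 71107089 to 71107209) and Mir297-1 (chromosome 7, 10958437 to 10958512) overlap no other annotated gene.

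Levels are counts per 1000000 (CPM) of the sense counts of all miRNA gene rows, which were 1281201 in replicate 1 and 1297647 in replicate 2. A read covers a whole mature miRNA, so no scaling by length was applied, and values after ± are SD over the 2 libraries. Reads that map to several places were 41.7% and 39.1% of the mapped reads and stand in a row of their own, outside the gene counts. A gene whose hairpin has close copies may thus be undercounted to an unknown degree, which bears on almost every member. A stretch of 20 bases was shared with at least 1 other miRNA hairpin by 67 of the 69 members (97.1%), against 46.9% of the other rows.

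The E11.5 forebrain held a few members of the Sfmbt2 array at clear levels and most members at no count. The families together summed to 5109 CPM in replicate 1 and to 4987 CPM in replicate 2, or 0.511% (95% Wilson interval 0.499 to 0.523%) and 0.499% (0.487 to 0.511%) of the sense counts. Of the 69 members, 9 (13.0%) reached 2 CPM or more in both libraries, a level of about 3 counts, against 21.5% of all 1973 gene rows. Among the 923 rows whose hairpin shares 20 bases with another, 10.3% did so, and among the 971 rows that share none, 33.9%. Among 101 rows of other names with as many TG, GT, CA and AC steps as the median member, 1.98% did so. This cut was not applied to the members, and Mir467c, Mir467d and Mir467e lie below it. A further 11 members had 38 counts among them, and 49 had no count in either library. Most other gene rows had no count either. A count stood in 20 of the 69 members and in 664 of the 1825 other gene rows with a hairpin. Of the 923 rows that share 20 bases, 134 had one. Intervals and limits of detection cover counting error only, because PCR copies of 1 molecule are counted as separate reads.

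Mir467c, Mir467d and Mir467e held 77.1% of the counts of all members. Mir467d (chromosome 2, 10507630 to 10507714) had 2136 counts or 1667 CPM in replicate 1 and 1902 counts or 1466 CPM in replicate 2. The mean of 1566 ± 142 CPM was rank 94 of all gene rows. Mir467c (10473931 to 10474027) had 1538 counts or 1200.4 CPM in replicate 1 and 1562 counts or 1204 CPM in replicate 2, a mean of 1202 ± 2.32 CPM. The libraries were nearly equal for Mir467c, while Mir467d was higher in replicate 1.

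Mir467e (10505721 to 10505807) had 1420 counts or 1108 CPM in replicate 1 and 1483 counts or 1143 CPM in replicate 2, a mean of 1126 ± 24.4 CPM. In both libraries Mir467d led, then Mir467c, then Mir467e. The counts of Mir467d were 1.39 times those of Mir467c in replicate 1 (exact 95% interval 1.30 to 1.48) and 1.22 times in replicate 2 (1.14 to 1.30). Mir467c and Mir467e were not told apart by counting error in replicate 2, with a ratio of 1.05 (0.980 to 1.13) after 1.08 (1.01 to 1.16) in replicate 1.

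Mir669 members followed. Mir669l (10468971 to 10469068) stood at 492 CPM in replicate 1 and 477 CPM in the other library, a mean of 484 ± 10.4 CPM. Mir669o (10514300 to 10514395) had 399 and 455 CPM, a mean of 427 ± 39.5 CPM. Their order was the same in both libraries, but the ratio of their counts was 1.23 (1.10 to 1.39) in replicate 1 and 1.05 (0.936 to 1.18) in replicate 2, so they were not told apart in the latter.

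Below this pair the steps between neighbours exceeded counting error in both libraries. Mir669c (10509296 to 10509404) had 136 and 138 CPM, a mean of 137 ± 1.51 CPM, and Mir669e (10467495 to 10467613) had 57.8 CPM in each library. Mir466n (10513741 to 10513834), which alone of the Mir466 family passed 2 CPM in both libraries, had 32 and 39 counts, a mean of 27.5 ± 3.59 CPM. Mir669h (10518155 to 10518279) came last of the 9, with 10 counts or 7.81 CPM in replicate 1 and 6 counts or 4.62 CPM in replicate 2.

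**Figure D1:**
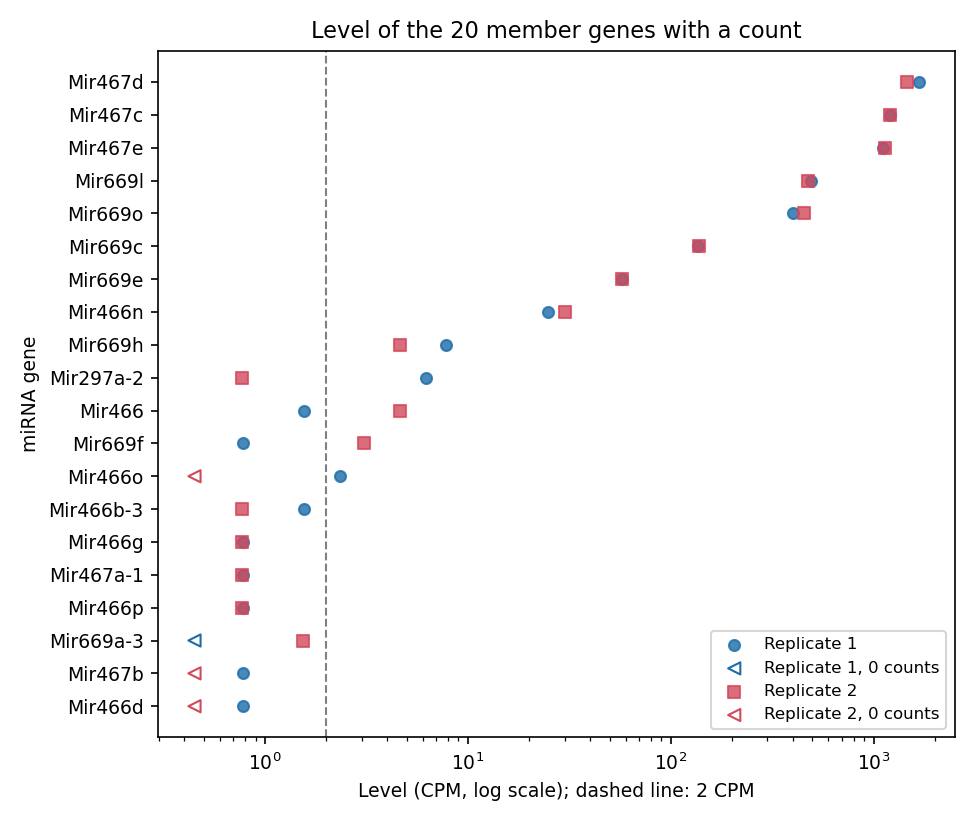
Level in CPM on a log axis for the 20 member genes with a count, circles for replicate 1 and squares for replicate 2. Open triangles stand for 0 counts and have no value on the axis. The 9 genes from Mir467d (1566 CPM) to Mir669h (6.21 CPM) lie right of the dashed line at 2 CPM in both libraries.

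The level of the 9 detected members spanned 252-fold. Their median was 427 CPM, against 143 CPM for the 424 gene rows that reached 2 CPM in both libraries. Counts were concentrated: the first 5 genes held 95.2% of the members' counts and the first 7 held 99.0%. The remaining 11 genes with counts had 9 or fewer each. Mir297a-2 had 8 counts in replicate 1 and 1 in replicate 2, Mir466 had 2 and 6, Mir669f 1 and 4, and Mir466o 3 and 0. For Mir466b-3, Mir466g, Mir466p, Mir467a-1, Mir669a-3, Mir467b and Mir466d, no library had more than 2 counts. At such counts the libraries cannot be compared gene by gene.

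The detected members were spread over 3 of the 4 families, and no test was made between families. In Mir467, 3 of 17 genes reached 2 CPM in both libraries, beside 21.5% of all gene rows, and the family summed to 3978 and 3813 CPM. The 11 copies named Mir467a and Mir467b had 2 counts and 1 count in all, so the family's counts stood almost wholly in Mir467c, Mir467d and Mir467e. Mir669 had 5 of 21 genes detected, close to the same 21.5%, and 1093 and 1137 CPM, spread over Mir669l, Mir669o, Mir669c, Mir669e and Mir669h.

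Mir466, the largest family with 25 genes, had 1 detected, Mir466n, and 32.8 and 37.0 CPM in all. Mir297 had 0 of 6 detected, and 6.24 and 0.771 CPM, all from Mir297a-2. Over all gene rows 21.5% were detected, and a family of 6 genes is too small to set against that share. Hairpins without a 22-base window of their own, whose reads map to several places, were 10 of 17 in Mir467, 6 of 25 in Mir466, 4 of 21 in Mir669 and 0 of 6 in Mir297, so these counts of detected members can be too low. The order of the families by summed level, Mir467, Mir669, Mir466 and Mir297, was the same in both libraries.

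**Figure D2:**
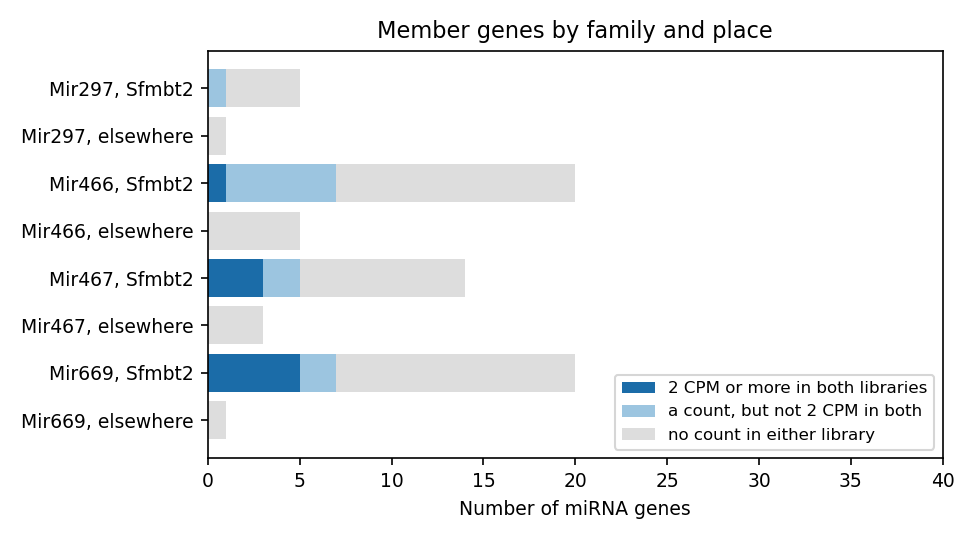
Number of member genes in each family, inside Sfmbt2 and elsewhere, coloured by whether they reached 2 CPM in both libraries, had fewer counts or had none. All 9 detected genes lie inside Sfmbt2, 5 of them in Mir669, and the bars for members elsewhere hold no counts.

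All counts came from the Sfmbt2 intron. The 59 members inside had 6546 counts in replicate 1 and 6472 in replicate 2, and 20 of them had a count. The 10 members elsewhere had 0 counts in both libraries, which allows a summed level of up to 2.34 and 2.31 CPM for their reads that map to a single place. Of these 10 hairpins, 9 share 20 bases with another one. Over all 923 such rows, 134 had a count and 10.3% reached 2 CPM in both libraries. With only 10 genes, 0 is not far from these shares. Against a floor of 3 counts over the group in each library, the sum over the 59 genes inside was at least 2157-fold that over the 10 elsewhere. This holds for reads that map to a single place only, and sets no bound on the ratio of the levels. On the log2 scale this bound was 11.08 ± 0.01. With 2 libraries no permutation of a paired difference can go below p = 0.5, so no test was made. The median member had 0 CPM in both places, a value at the floor that shows neither a difference nor its absence.

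Copies elsewhere had longer annotated hairpins, with a median of 120.5 bases against 90 inside Sfmbt2. As a measure of distinctness, each hairpin was cut into all windows of 22 bases, about the length of a mature miRNA, and the share of windows found in no other miRNA hairpin was counted. Its median was 77.0% for the 10 members elsewhere and 36.0% for the 59 inside Sfmbt2. Windows outside the mature miRNA enter this share, so it does not show whether a read of the mature miRNA is unique. Outside miRNA genes the picture differed: 9 of the 10 members elsewhere shared 22 bases on either strand with another GENCODE gene, and 26 of the 59 inside did. Mir466i matched transcripts of 3717 such genes, Mir466q of 3713 and Mir466k of 3668, while Mir669n matched none. Among the detected members Mir669h matched 152 such genes, and Mir467c, Mir467d and Mir467e matched none. Only transcripts were searched, so introns and the ground between genes are not covered. The part of such matches in the counts was not tested.

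Within the array, the counts stood at the ends. The copies of Mir467a and Mir467b mark a block of repeats, from 10476346 to 10503355, which was drawn from the annotation after the levels were seen. Of the 10 gaps between the starts of neighbouring copies, 9 measured from 2413 to 2470 bases, and the longest, 4880 bases, was between Mir467a-9 and Mir467a-10. Within that longest gap lies Gm25022 (10500822 to 10500904), whose hairpin is identical to that of Mir467a-2. This block of 27010 bases holds 23 members, and these had 2 counts in replicate 1 and 1 count in replicate 2. In the 8764 bases before it, 15 members had 2254 and 2263 counts, or 1759 and 1744 CPM, with Mir669e, Mir669l and Mir467c detected. In the 14715 bases after it, 21 members had 4290 and 4208 counts, or 3348 and 3243 CPM, with the other 6 detected genes. Both libraries thus had nothing at 2 CPM in the block and more counts after it than before.

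The block is also where the hairpins are least distinct. Of its 23 members, 19 had no window of 22 bases of their own, and the other 4, Mir466b-2, Mir467b, Mir669g and Mir669j, had from 21.2 to 37.3% of such windows. For example, Mir467a-2 has the same hairpin as 6 other genes, and Mir466b-4 the same as 2 others. Before the block 0 of 15 members lacked a window of their own and after it 1 of 21, Mir669a-2. Of the 20 members without one, only Mir467a-1 had a count, 1 in each library. Since reads of these hairpins map to several places, their 0 counts set no limit on their level.

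**Figure D3:**
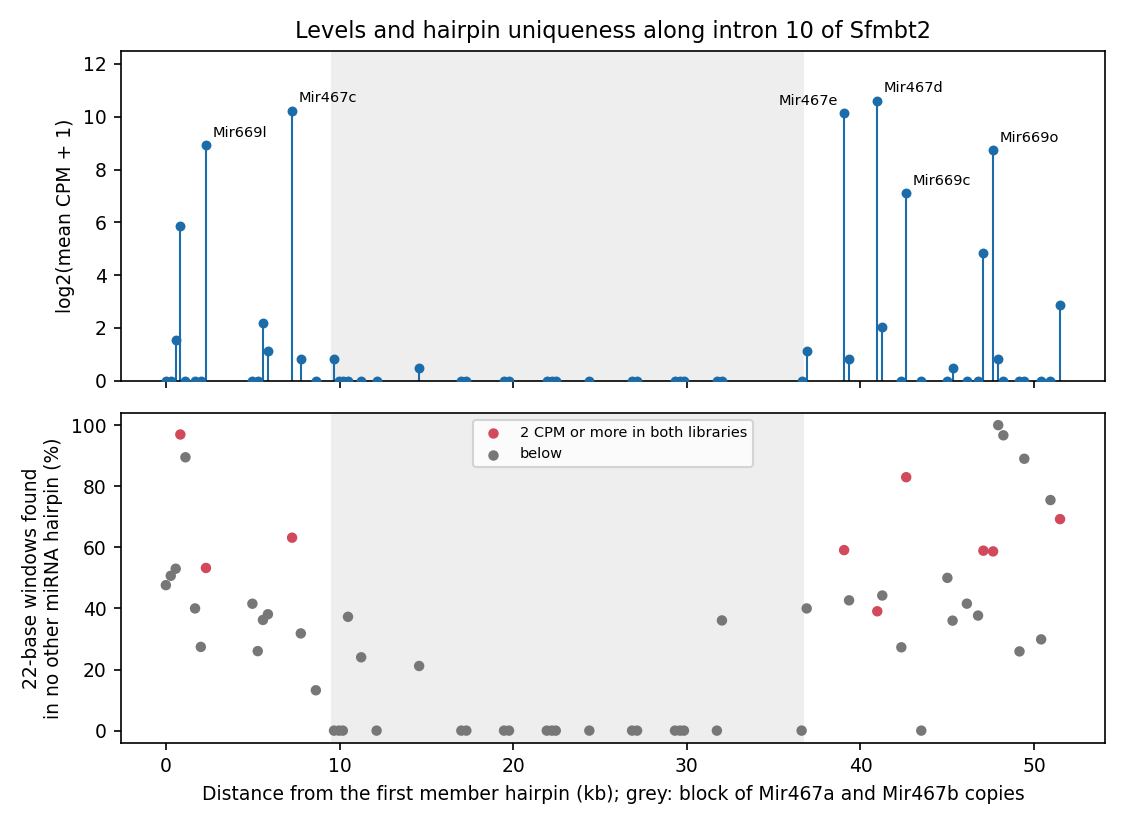
Members along the Sfmbt2 intron by distance in kb from the first member hairpin. The upper panel shows the mean level as log2(CPM + 1) and the lower panel the share of 22-base windows found in no other miRNA hairpin, with detected genes in red. The grey block of Mir467a and Mir467b copies holds 23 members with 3 counts in all, and 19 of them lie at 0% in the lower panel.

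Across the whole array, a member with more windows of its own was not always the one with more counts. Detected members had from 39.1% (Mir467d) to 96.9% (Mir669e) of windows of their own, with a median of 59.1%, and the 50 others in the array had from 0 to 100% with a median of 26.7%. Mir467d, at the highest level, shares a stretch of 60 bases with Gm25022, and Mir467c and Mir467e share 48 bases with each other. Mir669e, whose longest shared stretch is 24 bases, had 57.8 CPM. Of the 7 array members with 75% or more of windows of their own, Mir669e and Mir669c were detected, Mir466g had 1 count in each library, and Mir466h, Mir466l, Mir669b and Mir669i had none. Mir466g, at 100%, shares no stretch of 20 bases with another miRNA hairpin, and it had 0.781 and 0.771 CPM, though it shares 22 bases with 1 other GENCODE gene.

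Neighbouring hairpins could differ widely. Mir466 is the next hairpin after Mir467d on the same strand, and had 2 and 6 counts beside 2136 and 1902. Mir466p, the next hairpin after Mir467e, had 1 count in each library beside 1420 and 1483. Of their windows of 22 bases, 44.2% in Mir466 and 42.6% in Mir466p were found in no other miRNA hairpin, against 39.1% in Mir467d and 59.1% in Mir467e.

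The other hairpins of this intron had few counts. Besides the members, 48 miRNA genes with symbols of the form Gm lie inside Sfmbt2. Their sum was 10 counts in replicate 1 and 6 in replicate 2, and 1 of them, Gm22925 with 3 counts in each library, reached 2 CPM in both. Of these 48 hairpins, 22 had no 22-base window of their own, and the median share of such windows was 11.3%, so few counts set no limit on the level of many of them.

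Counts of the members were all on the strand of the gene. The opposite-strand column held 0 counts for the 69 members beside 13018 sense counts in both libraries, which allows an opposite-strand share of up to 0.0230%. Over all gene rows the sense column held 96.4% and 96.8% of the counts.

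Between the libraries, the array was at nearly the same level. The log2 ratio of replicate 1 to replicate 2 for the summed members was 0.03 (exact 95% interval -0.01 to 0.08), and it was -0.04 when scaled by TMM and -0.02 by DESeq2 size factors. The libraries were then compared gene by gene with an exact binomial test, two-sided, where both together held at least 10 counts, with Benjamini-Hochberg adjustment over all 398 such genes, and called a gene at an adjusted p under 0.05 and a 2-fold difference. It called 0 of the 9 tested members, against 2.76% of all tested genes (2.26% higher and 0.503% lower in replicate 1). At an unadjusted p under 0.05 there were 2 members, Mir467d and Mir669o, against 35.4% of all tested genes. The edgeR exact test at a fixed coefficient of variation of 0.2 called 0 of all 398 tested genes, so its 0 members set them apart from no other gene. At an unadjusted p under 0.05 in that test there were 13 of all tested genes and 0 members. The binomial test compares these 2 libraries and not conditions, and it covers counting error alone.

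With counts scaled by library totals, Mir467d differed most clearly but by little. Its log2 ratio was 0.19 (0.10 to 0.28), with an adjusted p of 0.000249 in the exact binomial test. At this scaling it was the only member past that threshold without the fold minimum, where 28.4% of all tested genes passed. The ratio of Mir467d stayed above 0 at 0.11 when scaled by TMM and 0.14 by DESeq2 size factors. Its adjusted p in the exact binomial test was then 0.0463 and 0.0128. The exact binomial test gave Mir669o a log2 ratio of -0.19 (-0.36 to -0.02) and an adjusted p of 0.0967. With TMM scaling it was -0.26 and its adjusted p in that test 0.0124, and with DESeq2 size factors -0.24 and 0.0268. Under TMM scaling Mir669o thus differed more clearly than Mir467d. The spread between libraries over all genes, which edgeR put at a biological coefficient of variation of 10.3%, is not in these p-values. For the other 7 members the interval held 0, from -0.26 (-0.99 to 0.44) for Mir466n to 0.71 (-0.85 to 2.50) for Mir669h.

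**Figure D4:**
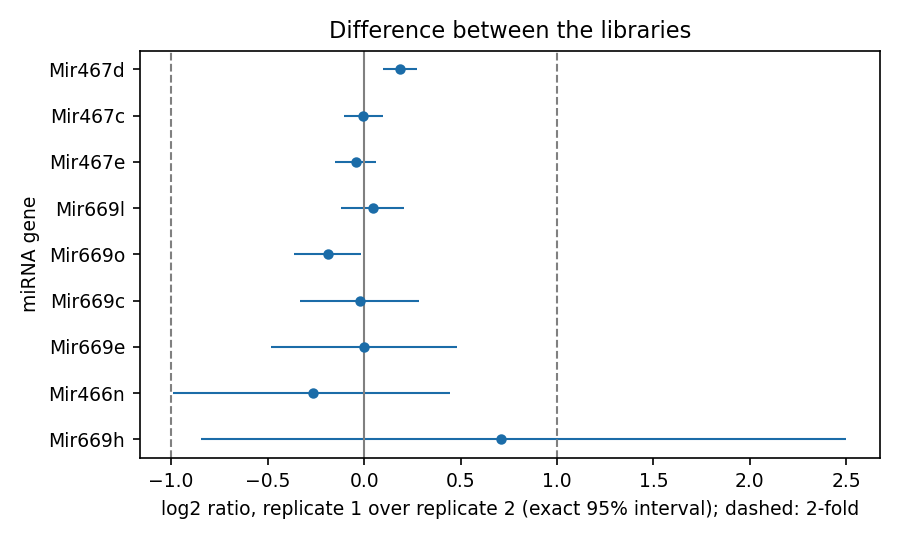
Log2 ratio of replicate 1 over replicate 2 for the 9 members with 10 counts or more, with exact 95% intervals that cover counting error only. Dashed lines mark a 2-fold difference. No point lies beyond them, and intervals widen from Mir467d (0.10 to 0.28) to Mir669h (-0.85 to 2.50).

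Set beside 5 miRNAs from other imprinted loci, the array sum of 5048 CPM was below 3 and above the other two. Mir335, in an intron of Mest, had 92176 ± 6810 CPM, and Mir298 and Mir296 of the Gnas locus had 11238 ± 1064 and 9999 ± 965 CPM. Mir483 in Igf2 had 597 ± 114 CPM, a mean between those of Mir467e and Mir669l, and Mir675 of H19 had 29.1 ± 0.811 CPM, close to Mir466n. These 5 hairpins share no stretch of 20 bases with another miRNA hairpin. The embryonic stem cell cluster of Mir290a to Mir295, named because both clusters are known from these cells, had 156 and 153 CPM over its 7 rows. The members exceeded it 32.7-fold in each library, although the lists differ in length and in how many hairpins share bases.

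The tissue label was checked against lists of marker miRNAs for neural and for other cells. The forebrain and neural list reached 2 CPM for 10 of 11 rows and summed to 40092 and 34513 CPM. Lower sums stood against endothelium (Mir126a, 34601 and 30323 CPM), mesenchyme and smooth muscle (14710 and 13286), erythroid cells (606 and 371), striated muscle (238 and 120) and hindbrain and trunk (198 and 75.5). The lists differ in length, so their sums are not matched. Rows at 2 CPM or more in both libraries were 5 of 5 for mesenchyme and smooth muscle, 3 of 3 for erythroid cells and 1 of 1 for endothelium. For hindbrain and trunk they were 4 of 5 and for striated muscle 3 of 5, against 21.5% of all gene rows. Reaching 2 CPM thus did not set the neural list apart. Mir126a alone, with a mean of 32462 CPM, exceeded each neural gene, of which Mir92b was highest at 17079 CPM. Mir196a-1, Mir1a-1 and Mir133a-1 were at 0 in both libraries, and each of these hairpins has a stretch of 20 bases in common with another one. So do the Mir9, Mir124a and Mir128 rows of the neural list, which may thus be undercounted. The sum of each of these marker lists was higher in replicate 1, as was that of the members at 5109 and 4987 CPM. Single genes such as Mir144, Mir153 and Mir124a-2 were higher in replicate 2, as was the sum of the miRNAs from other imprinted loci. Mir451a, with 493 and 244 CPM, carried the erythroid difference. The part of such cells in the members' levels was not tested.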

How the data were processed

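The submitters' files hold raw counts per miRNA gene, aligned to mm10 and counted on GENCODE M4, per the labels and the deposited text files. Which aligner and counter were used is not given in the sources used here. Deposited counts stand in 3 columns (both strands, sense, opposite), of which the sense column was used. Rows for unmapped, multimapping and unassigned reads were left out of totals. Of 1973 identifiers, 1894 matched GENCODE M21 (GRCm38), which gave symbols, positions and hairpins. Hairpins were compared among miRNA genes for shared stretches of 20 bases and windows of 22 bases.

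The libraries are labelled biological replicates 1 and 2, and separate pools are named. With 1 library on each side, edgeR's quasi-likelihood test could not be fitted, so an exact binomial test was used, with 0.5 counts added for log2 ratios. Members and lists were chosen with earlier results of these data known. Named genes were the 12 members with the highest mean CPM, every other with 10 counts or more, and the lists; hairpins singled out by distinctness or position, and the block of repeats, were chosen after their values were seen. Software was edgeR 4.0.16 and DESeq2 1.42.0 in R 4.3.3, and scipy 1.17.1 in Python 3.11.15. Alternatives covered the detection limit, count minimum, scaling, strand column, denominators, shared stretches, window length and each library left out.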

Additional observations from a re-analysis of the deposited data

How the results depend on the processing

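The summed share of the members, 0.505% of the sense counts, was 0.488% with the unstranded column, 0.244% of all mapped reads and 0.857% without the 10 most abundant genes, since each changes the denominator. With either library left out it ranged from 0.499 to 0.511%. The count of 9 detected members ran from 8 at a limit of 5 CPM to 11 with the mean at the limit, and was 11 with either library left out. It was 0 among the 2 members, Mir466g and Mir669n, that share no 20 bases with another hairpin. Under each of these limits and libraries the members counted lay in Sfmbt2, and the count elsewhere was 0. The log2 bound of 11.08 between the places fell to 10.55 without the most abundant member of each place, and to 0 for the median of log2(CPM + 1), where most members have no count; it ranged from 11.08 to 11.09 with either library left out. The number of members called between the libraries was 1 without a fold minimum and 0 under the other 6 alternatives run. The summed log2 ratio of 0.03, whose interval holds 0, was -0.037 when scaled by TMM and -0.015 by DESeq2 size factors. Windows of 18 and 25 bases, chosen after the data were seen, left 20 and 19 members without a window of their own, against 20. Levels of the leading members changed by -3.56 to -3.30% with the unstranded column. No paired analysis was possible because the series has 1 group.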

Other observations

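Hairpins of other names that are as rich in TG, GT, CA and AC steps as the median member rarely reached the detection limit. Of 101 such gene rows, 2 (1.98%) reached 2 CPM in both libraries, and of all members 13.0% did. These shares are not matched, because the members were not cut by the same measure. Mir467d (50%), Mir467e (48.8%) and Mir467c (45.8%), the members with the most counts, lie below the median of 51.2%. The 101 rows also hold copies of member hairpins, such as Gm25022, which is identical to Mir467a-2. The 2 rows that reached 2 CPM were Mir574, with 67.1 CPM in replicate 1 and 53.9 CPM in replicate 2, and Gm22925 of the Sfmbt2 intron. Gm22925 had 3 counts in each library. Both genes were singled out after their values were seen.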
